A study of Mus musculus with 3 samples.

Results

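The genes described here are 7 chemokines that call leukocytes into tissue: Ccl2, Ccl7, Ccl8 and Ccl11 of the CC subfamily, and Cxcl1, Cxcl2 and Cxcl5 of the CXC subfamily. They were chosen by name, for the leukocytes they attract, and are 7 of the 32285 genes counted in the files. The cells were the CD31- CD45- part of the stromal vascular fraction, that is, the cells of fat freed with collagenase, without the floating adipocytes and sorted to leave out endothelial cells (CD31) and leukocytes (CD45). They came from the subcutaneous inguinal fat of male wild-type C57BL/6J mice aged 8 weeks, with no treatment named in the labels and 3 replicates in 1 condition and 1 droplet library each. The replicates are taken here as 3 mice. No groups of mice were therefore compared, and every comparison set cells against other cells of the same mouse. The fat pads were digested warm before the sort, so these are levels in digested tissue, and the gates below were set on RNA, not on surface protein.

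Chemokines are small secreted proteins that bind to matrix and form gradients along which leukocytes move. Ccl2 and Ccl7 signal mainly to monocytes through receptors such as Ccr2, and Ccl8 is a further CC chemokine of the same gene cluster. Ccl11, or eotaxin, calls eosinophils through Ccr3. Cxcl1, Cxcl2 and Cxcl5 call neutrophils through Cxcr2. In fat, stromal cells are a known source of several of them, and most of these genes are known targets of NF-kB, the transcription factor downstream of the receptors for interleukin 1, tumour necrosis factor and Toll-like ligands.

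The subfamilies are visible in the coding sequences. The CC genes encode 2 adjacent cysteines near the start of the mature protein, while the CXC genes encode 2 cysteines with 1 codon between them. The 3 CXC genes also carry the glutamate-leucine-arginine codons in front, the mark of CXC chemokines that act on neutrophils. The following 60-base windows, 5′ to 3′ on the plus strand, were read from the GENCODE transcripts of GRCm38, and capitals mark those codons. Each window lies within exon 2 of its gene, at chr11:82036497-82036556 for Ccl2, chr11:82046529-82046588 for Ccl7, chr11:82116047-82116106 for Ccl8, chr11:82061687-82061746 for Ccl11, chr5:90891487-90891546 for Cxcl1, chr5:90904133-90904192 for Cxcl2 and chr5:90759718-90759777 for Cxcl5.
Ccl2: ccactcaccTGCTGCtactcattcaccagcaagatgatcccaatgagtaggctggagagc
Ccl7: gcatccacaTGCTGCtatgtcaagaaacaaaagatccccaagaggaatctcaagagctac
Ccl8: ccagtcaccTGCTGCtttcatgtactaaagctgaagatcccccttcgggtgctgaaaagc
Ccl11: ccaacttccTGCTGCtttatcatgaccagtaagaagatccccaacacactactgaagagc
Cxcl1: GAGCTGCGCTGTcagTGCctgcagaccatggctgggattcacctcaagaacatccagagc
Cxcl2: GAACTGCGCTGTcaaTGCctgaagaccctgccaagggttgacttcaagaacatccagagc
Cxcl5: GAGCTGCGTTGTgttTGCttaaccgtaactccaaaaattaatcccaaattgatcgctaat

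The 4 CC genes lie within 81.2 kb of chromosome 11, in the order Ccl2, Ccl7, Ccl11 and Ccl8, and the 3 CXC genes within 146.6 kb of chromosome 5, in the order Cxcl5, Cxcl1 and Cxcl2. Ccl2 (ENSMUSG00000035385) lies at chr11:82035571-82037453, Ccl7 (ENSMUSG00000035373) at chr11:82045712-82047525, Ccl11 (ENSMUSG00000020676) at chr11:82057823-82062955 and Ccl8 (ENSMUSG00000009185) at chr11:82115185-82116799. Cxcl5 (ENSMUSG00000029371) lies at chr5:90759360-90761624, Cxcl1 (ENSMUSG00000029380) at chr5:90891241-90893115 and Cxcl2 (ENSMUSG00000058427) at chr5:90903871-90905938. The most similar coding sequences were those of Cxcl1 and Cxcl2, with 75.7% identical bases in a global alignment, followed by Ccl7 and Ccl11 with 66.3%. No member is a near-identical copy of another. Ccl2 is overlapped on the other strand by Gm17268.

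No promoter sequences were at hand for Ccl2, Ccl7, Ccl11 and Cxcl5. Those of Cxcl1, Cxcl2 and Ccl8 were at hand and are shown. They are RefSeq sequences of GRCm38.p6 upstream of the start of transcription, at chr5:90890995-90891240, chr5:90903649-90903870 and chr11:82114935-82115184, plus strand. Capitals mark matches to the core of an NF-kB site (GGG, any 5 bases, then CC) on either strand. Matches that overlap are joined.
Cxcl1: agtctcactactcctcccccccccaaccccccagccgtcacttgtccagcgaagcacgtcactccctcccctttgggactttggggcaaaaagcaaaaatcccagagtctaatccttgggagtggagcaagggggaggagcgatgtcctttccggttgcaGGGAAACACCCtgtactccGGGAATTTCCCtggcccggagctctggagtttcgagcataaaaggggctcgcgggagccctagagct
Cxcl2: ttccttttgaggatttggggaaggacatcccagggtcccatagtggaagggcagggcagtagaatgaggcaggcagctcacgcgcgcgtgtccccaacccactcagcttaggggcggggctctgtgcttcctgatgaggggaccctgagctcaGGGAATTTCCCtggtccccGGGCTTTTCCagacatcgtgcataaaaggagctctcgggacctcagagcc
Ccl8: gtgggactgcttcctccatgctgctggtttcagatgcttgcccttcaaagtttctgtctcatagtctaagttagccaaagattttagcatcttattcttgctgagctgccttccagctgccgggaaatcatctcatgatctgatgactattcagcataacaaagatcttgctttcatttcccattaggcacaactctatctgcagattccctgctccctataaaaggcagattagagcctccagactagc

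The Cxcl1 and Cxcl2 windows both held the letters GGGAATTTCC, beginning 71 and 97 bases before the RefSeq start, beside a further match each. The core alone is common, being present in 45.8% of the 32851 promoter windows of 250 bases, while the 10 letters GGGAATTTCC, chosen after they were seen here, were present in 28 of them (0.0852%). The Ccl8 window held no match. None of these windows held TGANTCA (AP-1, in 6.75% of all windows), TTGCNNAA (C/EBP, 9.56%) or TTCNNNGAA (a STAT site, 7.02%). A match is a match of letters and not a measured binding site.

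After barcodes with more than 500 detected genes and under 5% mitochondrial UMIs (unique molecular identifiers, counted molecules) were kept, the 3 libraries held 34577 cells, with a median of 6667 to 12192.5 UMIs per cell. Between 37 and 59 of the kept barcodes were shared by a pair of libraries. Gates were set on raw UMIs. Progenitor cells had at least 3 UMIs of Dpp4 and Pi16 together and at most 1 of Icam1 and Fabp4, preadipocytes had at least 4 of Icam1 and Fabp4 and at most 1 of Dpp4, and regulatory cells had at least 1 UMI each of Clec11a and Fmo2 and at most 1 each of Fabp4 and Dpp4. Cells that met 2 gates were left out, which left 19841 progenitor cells, 5561 preadipocytes and 1058 regulatory cells. The regulatory gate therefore rested on 270, 384 and 404 cells in mice 1, 2 and 3. Median depth also differed, from 4575 to 10104.5 UMIs per cell in the regulatory gate against 6690 to 12052 in the progenitor gate and 7296 to 12977 in the preadipocyte gate. Marker genes outside the gates mostly followed the gate names. All 8 progenitor markers were lower in preadipocytes than in progenitor cells, and all 10 preadipocyte markers were higher. Of all genes tested there, 29.2% were lower and 27.2% higher. In regulatory against progenitor cells, 5 of 6 regulatory markers were higher and 1 lower, beside 19% and 24% of all genes. Against progenitor cells, 4 of 6 regulatory markers were also higher in preadipocytes (1 lower), and 8 of 10 preadipocyte markers in regulatory cells. Between preadipocytes and regulatory cells, 9 of 10 preadipocyte markers were higher in preadipocytes and 5 of 6 regulatory markers lower. Of all genes, 13.4% were higher and 12.3% lower there. Levels are given as CPM, the UMIs of a gene per 1000000 UMIs summed over the cells of 1 gate in 1 mouse.

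The chemokines split into genes that led in progenitor cells and genes that led in preadipocytes. Ccl2, Cxcl1 and Cxcl2 were lower in preadipocytes than in progenitor cells, Ccl8 and Ccl11 were higher, and Ccl7 and Cxcl5 did not pass the test. These are 2 members higher and 3 lower of 7 tested, and among all 13258 genes tested 27.2% were higher and 29.2% lower (56.3% called), so a call as such was common between these gates. The CPM of the gates did not overlap between mice for Ccl2, Ccl8, Ccl11 and Cxcl2, as for 43.6% of all genes tested.

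**Figure D1:**
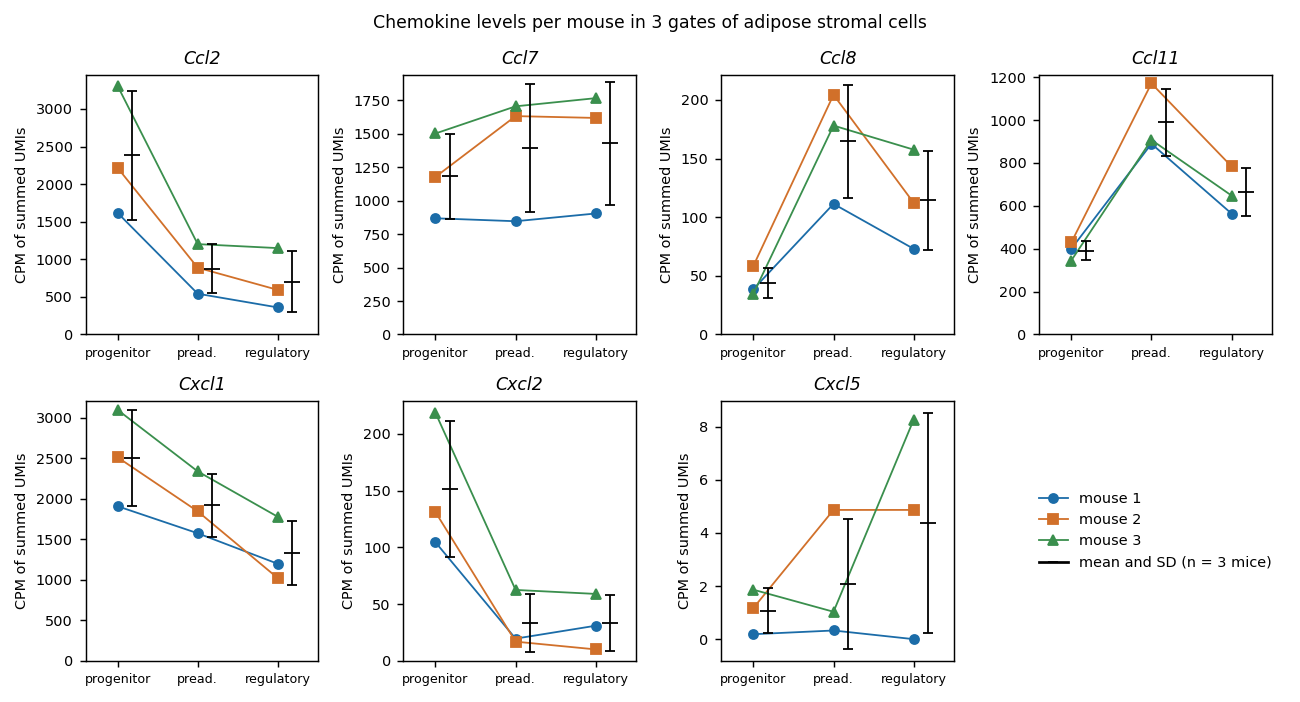
Level of each chemokine in CPM of summed UMIs (vertical axes, linear, 1 panel per gene) in the progenitor, preadipocyte (pread.) and regulatory gates, with 1 coloured line per mouse and the mean with SD in black. Lines for Ccl2, Cxcl1 and Cxcl2 fall from the progenitor gate in every mouse, lines for Ccl8 and Ccl11 rise to the preadipocyte gate in every mouse, and the Cxcl5 values rest on few cells.

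Among the monocyte chemokines, Ccl2 was counted at 1618, 2218 and 3308 CPM in the progenitor cells of mice 1, 2 and 3, at 542, 888 and 1202 CPM in their preadipocytes and at 359, 593 and 1149 CPM in their regulatory cells. Every progenitor value was above every value of the other gates, and mouse 3 was the highest in each gate. Ccl2 was 2.84-fold lower in preadipocytes than in progenitor cells (log2 fold change -1.51, SE 0.10, edgeR adjusted p = 1.13e-07, lower in 3 of 3 mice). In regulatory cells it was 3.61-fold lower (log2 fold change -1.85, SE 0.11, edgeR adjusted p = 6.38e-08).

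Ccl7, the neighbour of Ccl2 on chromosome 11, had another pattern. It was counted at 868, 1178 and 1502 CPM in progenitor cells, 846, 1632 and 1705 CPM in preadipocytes and 904, 1618 and 1766 CPM in regulatory cells of mice 1, 2 and 3. The gates overlapped, and the spread between mice, with mouse 1 lowest in each gate, was larger than the differences between gates. The log2 fold change of preadipocytes against progenitor cells was 0.15 (SE 0.09, edgeR adjusted p = 0.164), with a 95% interval from -0.02 to 0.32, and became 0.30 (edgeR adjusted p = 0.0128) without mouse 1. The small difference of regulatory against progenitor cells, 0.24 (SE 0.09, edgeR adjusted p = 0.0418), was no longer called without mouse 2 (0.16, edgeR adjusted p = 0.215), without mouse 3 (0.25, edgeR adjusted p = 0.143), with looser gates (0.16, edgeR adjusted p = 0.164), with gates set on thinned cells (0.18, edgeR adjusted p = 0.307) or without the mouse as a block (0.27, edgeR adjusted p = 0.62).

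Ccl8 was counted at 38.6, 58.5 and 34.7 CPM in progenitor cells, 111, 204 and 178 CPM in preadipocytes and 73.0, 112 and 158 CPM in regulatory cells of mice 1, 2 and 3. The lowest preadipocyte value was above the highest progenitor value. Ccl8 was 3.55-fold higher in preadipocytes (log2 fold change 1.83, SE 0.17, edgeR adjusted p = 1.60e-06, higher in 3 of 3 mice) and 2.54-fold higher in regulatory cells (1.35, SE 0.20, edgeR adjusted p = 0.000173) than in progenitor cells. Ccl2, Ccl7 and Ccl8 were thus a gene that was higher in progenitor cells, one that did not pass the test and one that was higher in preadipocytes within the same cluster of chromosome 11.

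Ccl11, the eosinophil chemokine, was counted at 399, 429 and 345 CPM in progenitor cells, 890, 1171 and 907 CPM in preadipocytes and 564, 784 and 648 CPM in regulatory cells of mice 1, 2 and 3. No values of different gates overlapped, and the order of the gates was the same in each mouse. Ccl11 was 2.42-fold higher in preadipocytes than in progenitor cells (log2 fold change 1.28, SE 0.08, edgeR adjusted p = 3.31e-08) and 1.69-fold higher in regulatory cells (0.76, SE 0.08, edgeR adjusted p = 9.38e-06).

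Among the neutrophil chemokines, Cxcl1 was counted at 1907, 2511 and 3096 CPM in progenitor cells, 1573, 1844 and 2337 CPM in preadipocytes and 1196, 1019 and 1776 CPM in regulatory cells of mice 1, 2 and 3. Progenitor and preadipocyte values overlapped between mice although each mouse had less in its preadipocytes. The difference was 1.35-fold (log2 fold change -0.43, SE 0.11, edgeR adjusted p = 0.00389, lower in 3 of 3 mice) and was not called without the mouse as a block (edgeR adjusted p = 0.237). Cxcl1 was 1.90-fold lower in regulatory than in progenitor cells (log2 fold change -0.92, SE 0.11, edgeR adjusted p = 2.36e-05), with no overlap of values.

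Cxcl2, next to Cxcl1 on chromosome 5, differed more. It was counted at 104, 131 and 218 CPM in progenitor cells, 19.5, 16.8 and 62.4 CPM in preadipocytes and 30.9, 10.0 and 58.9 CPM in regulatory cells of mice 1, 2 and 3. The lowest progenitor value was above every value of the other gates, and mouse 3 was the highest in each gate. Cxcl2 was 5.39-fold lower in preadipocytes (log2 fold change -2.43, SE 0.21, edgeR adjusted p = 6.96e-07) and 5.49-fold lower in regulatory cells (-2.46, SE 0.28, edgeR adjusted p = 1.90e-05) than in progenitor cells. The difference between Cxcl1 and Cxcl2 in their fold changes was not tested.

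Cxcl5 was rare. A UMI of Cxcl5 was found in 8, 27 and 82 kept cells of mice 1, 2 and 3, which held 23, 246 and 273 UMIs, and 1 cell of mouse 2 held 64 of them. Its level was 0.186, 1.17 and 1.86 CPM in progenitor cells, 0.326, 4.87 and 1.03 CPM in preadipocytes and 0, 4.87 and 8.27 CPM in regulatory cells of mice 1, 2 and 3. The regulatory UMIs came from 0, 5 and 4 cells. The edgeR call for regulatory against progenitor cells (log2 fold change 1.86, SE 0.63, edgeR adjusted p = 0.0329, higher in 2 of 3 mice) thus rests on 9 cells, and it was lost without the mouse as a block (edgeR adjusted p = 0.215). Preadipocytes against progenitor cells gave 0.84 (SE 0.49, edgeR adjusted p = 0.164), which turned to -0.45 (edgeR adjusted p = 0.515) without mouse 2 and rose to 1.72 (edgeR adjusted p = 0.00636) without mouse 3.

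Against progenitor cells, all 7 members were called in regulatory cells, 4 higher and 3 lower, where 43% of all genes tested were called (19% higher, 24% lower). The values of 5 members, all but Ccl7 and Cxcl5, did not overlap between these gates, as for 38.4% of all genes tested. The 2 comparisons share the progenitor cells, and both are printed side by side only. Preadipocytes and regulatory cells were set against each other directly. Ccl11 was higher in preadipocytes (log2 fold change 0.52, SE 0.08, edgeR adjusted p = 0.000439), as was Cxcl1 (0.49, SE 0.11, edgeR adjusted p = 0.0052). Ccl2 passed as well (0.35, SE 0.11, edgeR adjusted p = 0.0326). Its call was lost in several alternatives, among them without mouse 1 (0.28, edgeR adjusted p = 0.0923) and without mouse 2 (0.23, edgeR adjusted p = 0.313). Ccl11, Cxcl1 and Ccl2 are 3 of 7 members, and 25.7% of all genes were called there. Ccl8 did not pass (0.48, SE 0.19, edgeR adjusted p = 0.0953) but did in some alternatives, among them without mouse 3 (0.71, edgeR adjusted p = 0.0024). The values for Ccl7 (-0.10, 95% interval -0.27 to 0.08) and Cxcl2 (0.02, interval -0.59 to 0.64) did not tell these gates apart. Cxcl5 did not pass either (-1.01, SE 0.62, edgeR adjusted p = 0.275), but did in some alternatives, among them without mouse 2 (-2.50, edgeR adjusted p = 0.0433). Without the mouse as a block, edgeR called 0 of the 7 members between these gates and 1 had an unadjusted p under 0.05, while DESeq2 with the block called 3.

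**Figure D2:**
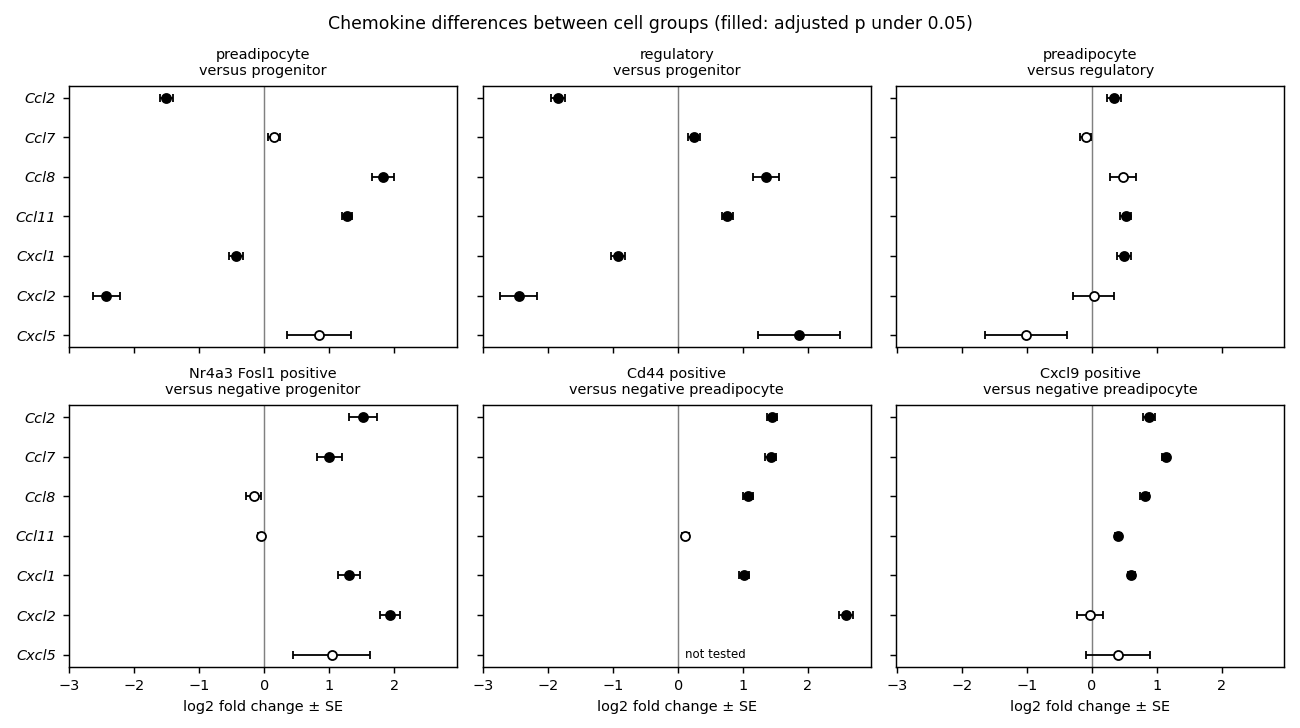
Log2 fold changes with SE (horizontal axes) of each chemokine in 6 comparisons of cells within mice, 3 between gates and 3 within a gate. Filled points have an edgeR adjusted p under 0.05. In the upper left panel Ccl2, Cxcl1 and Cxcl2 lie left of 0 and Ccl8 and Ccl11 right of it, and in the lower left panel Ccl8 and Ccl11 lie near or below 0 while Ccl2, Ccl7, Cxcl1 and Cxcl2 lie right of it.

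Sorting had left few other cells. Summed over 6 marker genes, endothelial RNA was at 2.68 to 8.46 CPM in the progenitor gate and 3.91 to 56.6 CPM in the preadipocyte gate, mural RNA at 8.32 to 10.5 CPM and 32.0 to 49.7 CPM, and leukocyte RNA at 4.41 to 8.11 and 5.03 to 8.77 CPM. Of the markers, 5 of 6 endothelial and 5 of 6 mural ones were higher in preadipocytes, while 0 of the 3 leukocyte markers tested were called in either direction. Without the cells that held a UMI of Ptprc, Lyz2, Cd74, Pecam1, Cdh5, Rgs5 or Notch3, the same 5 members were called in preadipocytes against progenitor cells. Among all kept cells, whether or not they met a gate, the 54 cells with endothelial markers (at least 3 UMIs of Pecam1 and Cdh5 together, none of Pdgfra) held Ccl2 at 218 CPM, Cxcl1 at 228 CPM, Ccl11 at 122 CPM, Ccl7 at 76.0 CPM and Cxcl2 at 15.2 CPM, the last from 3 UMIs. No UMI of Ccl8 or Cxcl5 was found in them, which allows a share of up to 5.56% of such cells. For Ccl2, Ccl7, Ccl11 and Cxcl1 these endothelial levels lie below the level of every gate in every mouse, and for Cxcl2 they do not, since the regulatory cells of mouse 2 held 10.0 CPM. Levels in cells with mural markers, found in the same way from Rgs5 and Notch3, were higher. These 25 cells held Ccl2 at 836 CPM, Ccl7 at 597 CPM, Ccl11 at 610 CPM, Cxcl1 at 1433 CPM, Cxcl2 at 212 CPM and Ccl8 at 46.4 CPM, so their Ccl2 was above that of preadipocytes in mouse 1 and of regulatory cells in mice 1 and 2, and their Cxcl2 above every preadipocyte and regulatory value. Their Cxcl1 was also above that of regulatory cells in mice 1 and 2, and their Ccl11 above that of regulatory cells in mouse 1. Set against progenitor cells, their Cxcl2 was above the level in mice 1 and 2, their Ccl11 above every value and their Ccl8 above mice 1 and 3. These mural values pool the 3 mice, and those of Cxcl2 and Ccl8 rest on 32 and 7 UMIs, each in 3 cells. The 10 cells with leukocyte markers held Ccl2 at 4546 CPM, Ccl7 at 2064 CPM and Ccl8 at 1228 CPM (47 UMIs in 2 cells). Free RNA in the droplets was not measured, and these cells may express the genes themselves. Genes known to respond to tissue digestion were also higher in preadipocytes, 10 of 16 against 3 lower, with a summed level of 24954 to 30732 CPM against 16584 to 20083 CPM in progenitor cells. Of all genes tested between these gates, 27.2% were higher and 29.2% lower. The part of the digestion in the chemokine levels was not tested.

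How many cells hold a gene and how much each cell holds were separated by thinning every cell to 3000 UMIs, which leaves out shallower cells. Cxcl1 was detected in 80.7% ± 9.05 (SD, n = 3 mice) of progenitor cells, Ccl2 in 64.3% ± 16.1, Ccl7 in 61.0% ± 11.4, Ccl11 in 54.9% ± 3.22, Cxcl2 in 10.4% ± 4.19, Ccl8 in 9.23% ± 1.70 and Cxcl5 in 0.0825% ± 0.103. In preadipocytes the share was 76.6% ± 8.85 for Cxcl1, 44.0% ± 14.3 for Ccl2, 52.7% ± 11.6 for Ccl7, 82.8% ± 4.38 for Ccl11, 3.20% ± 2.07 for Cxcl2 and 25.2% ± 5.98 for Ccl8. Ccl8 and Ccl11 were thus detected in more preadipocytes than progenitor cells in each mouse. Ccl7 was detected in fewer preadipocytes than progenitor cells in each mouse although its CPM was lower in mouse 1 alone, and each detecting preadipocyte held 7.72 UMIs (mean of mice, range 5.91 to 9.52) against 5.74 (4.56 to 6.66) in progenitor cells. At full depth the shares in progenitor cells were 89.7% for Cxcl1, 77.4% for Ccl2, 75.0% for Ccl7, 76.3% for Ccl11, 20.3% for Ccl8 and 14.0% for Cxcl2.

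In the endothelial cells, whose median depth was only 1999 to 5242 UMIs, the share with a UMI at full depth was 53.7% for Cxcl1 (95% Clopper-Pearson interval 39.6 to 67.4), 35.2% for Ccl2 (22.7 to 49.4), 25.9% for Ccl7 (15.0 to 39.7), 16.7% for Ccl11 (7.92 to 29.3) and 1.85% for Cxcl2 (0.0469 to 9.89). The thinned shares of Ccl2 in preadipocytes (37.0, 34.7 and 60.4% in mice 1, 2 and 3) and in regulatory cells (34.4, 35.1 and 51.5%) lie within that interval in mice 1 and 2 and above it in mouse 3. Those of Cxcl2 lie within it in both gates in every mouse and in the progenitor cells of mice 1 and 2 (8.02 and 7.98%), so these shares alone do not set the gates apart from endothelial cells. The level of Ccl2 did so more clearly in preadipocytes, at 542 to 1202 CPM against 218 CPM in endothelial cells. That of Cxcl2 did so in progenitor cells, at 104 to 218 CPM against 15.2 CPM (3 UMIs in 1 cell). In preadipocytes and regulatory cells Cxcl2 was at 16.8 to 62.4 and 10.0 to 58.9 CPM, ranges that begin near or below the endothelial value. The share of Ccl11 in preadipocytes lies above the endothelial interval, and that of Ccl8 above the 5.56% that its count of 0 allows. Intervals cover counting error only.

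Cxcl2 was held more unevenly than Ccl8. If the UMIs of the thinned progenitor cells had been spread over cells at random, 35.5% of cells would have held Cxcl2, where 10.4% did, and for Ccl8 the same calculation gave 11.3% where 9.23% did. These shares at random are a description, not a test. Progenitor cells with Cxcl2 held 4.33 UMIs of it on average (range over mice 3.86 to 4.91), and cells with Ccl8 held 1.30 (1.25 to 1.36). At full depth the top 10% of progenitor cells held 50.1% of the Ccl2 UMIs, 48.6% of those of Ccl7, 39.1% of Ccl11 and 37.9% of Cxcl1. For Cxcl2 and Ccl8 this share was 96.3 and 74.4% at full depth and 97.3 and 97.5% after thinning, where about as few cells hold either gene as are in the top 10%, so it does not tell them apart. Ccl2 too was uneven in progenitor cells, with 11.0 UMIs per detecting thinned cell (8.05 to 13.0) and detection in 64.3% of cells against 99.7% at random. So were Ccl7, with 5.74 UMIs and 61.0% against 96.1%, and Cxcl1, with 9.25 UMIs and 80.7% against 99.9%. Ccl11 came closer to an even spread, with 54.9% detected against 68.8%. Cxcl2 and Ccl8 thus had similar shares of progenitor cells but unlike numbers of UMIs per detecting cell.

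**Figure D3:**
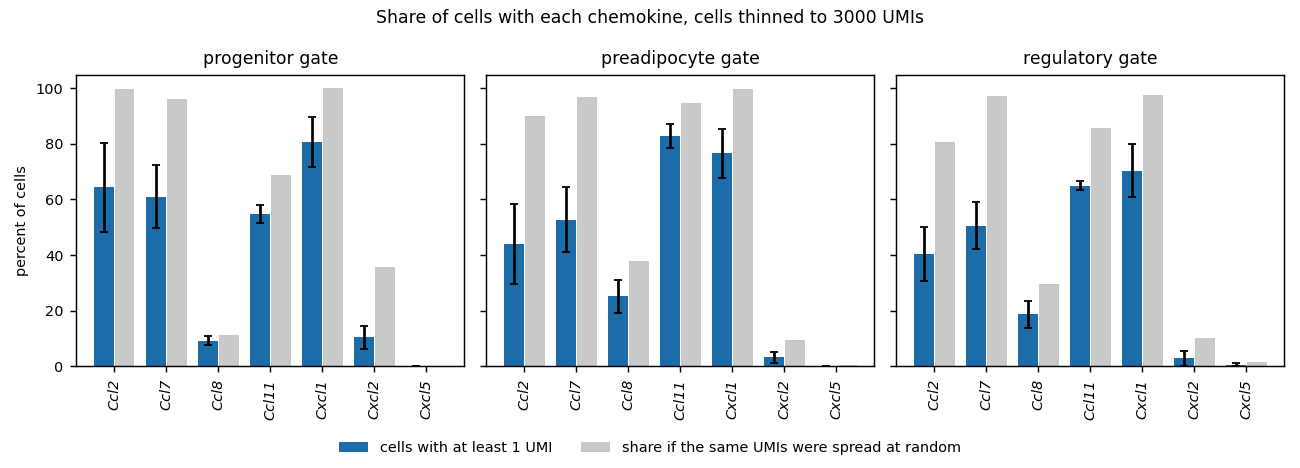
Percent of cells with at least 1 UMI of each chemokine after thinning to 3000 UMIs (blue bars, mean and SD of 3 mice) beside the percent that would hold one if the same UMIs were spread over cells at random (grey bars, mean of 3 mice). Blue falls far below grey for Cxcl2, at 10.4% against 35.5% in progenitor cells, and lies near it for Ccl8, at 9.23% against 11.3%. In progenitor cells blue is also well below grey for Ccl2, Ccl7 and Cxcl1.

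Thinned progenitor cells held at least 3 of the 7 chemokines in 62.1% ± 13.4 of cases (SD, n = 3 mice), preadipocytes in 60.7% ± 13.6 and regulatory cells in 47.7% ± 11.5. At least 4 were held by 27.0, 24.8 and 41.6% of progenitor cells in mice 1, 2 and 3, and none by 3.81, 6.15 and 0.956%. Mouse 3 had the largest share with at least 3 members in each gate, and the SD between mice was larger than the difference between progenitor cells and preadipocytes. No cell held all 7.

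**Figure D4:**
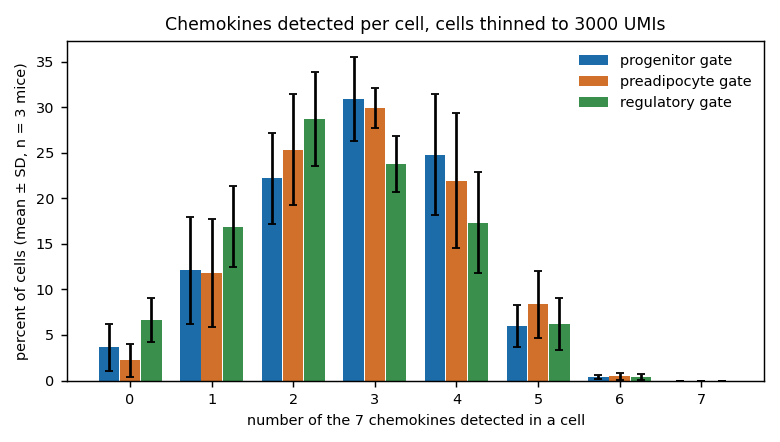
Percent of cells (vertical axis, mean and SD of 3 mice) by the number of the 7 chemokines detected in a cell thinned to 3000 UMIs. The bars of the 3 gates peak at 2 or 3 chemokines and their error bars overlap.

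In progenitor cells, detection of Ccl2, Ccl7, Cxcl1 and Cxcl2 went together, while that of Ccl11 had a phi of 0.03 or less with each other member. In regulatory cells Ccl11 and Ccl7 reached 0.12. The measure is phi, the correlation of presence and absence over the thinned cells of 1 mouse, given as the mean of 3 mice. The cells of a mouse share a library, so it is a description. In progenitor cells phi was 0.25 for Ccl2 and Ccl7 (0.20 to 0.32 over mice), 0.22 for Ccl2 and Cxcl1 (0.16 to 0.30), 0.19 for Ccl7 and Cxcl1 (0.15 to 0.26), 0.13 for Cxcl1 and Cxcl2 (0.10 to 0.17) and 0.12 for Ccl2 and Cxcl2 (0.09 to 0.15). Of progenitor cells with Ccl2, 70.9% also held Ccl7, against 44.5% of those without. Cxcl2 was detected in 12.3% of progenitor cells with Cxcl1 and in 2.17% of those without it. For scale, the phi of Ccl2 with 8024 other genes had a median of -0.002 and a 95th percentile of 0.03, and 0 of these genes exceeded its phi with Ccl7 or with Cxcl1. In progenitor cells, Ccl11 reached a lower phi with its neighbours on the chromosome, 0.02 with Ccl2, 0.03 with Ccl7 and 0.03 with Ccl8. Its phi was low with other genes too, with a 95th percentile of 0.017 and a maximum of 0.072 over 8024 genes. Of these genes, 176, 43 and 47 exceeded its phi with Ccl2, Ccl7 and Ccl8.

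Ccl8 was tied less closely to Ccl7 in progenitor cells than in the other gates. Its phi with Ccl7 was 0.03 in progenitor cells (0.02 to 0.03 over mice), 0.14 in preadipocytes (0.12 to 0.16) and 0.17 in regulatory cells (0.14 to 0.19). The ranges of progenitor cells and preadipocytes do not overlap, while those of preadipocytes and regulatory cells do. A phi also depends on how many cells hold a gene, and Ccl8 was held by few progenitor cells. With Ccl2 the phi of Ccl8 was 0.02, 0.08 and 0.13 in the same order. Over mice, the range of preadipocytes overlapped that of each other gate. The pair Ccl2 and Ccl7 had its highest phi in regulatory cells, 0.33 (0.31 to 0.35), against 0.19 in preadipocytes (0.13 to 0.23), and 71.0% of regulatory cells with Ccl2 held Ccl7 against 37.1% of those without. Cxcl5 was held by too few cells for its correlations to be read.

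**Figure D5:**
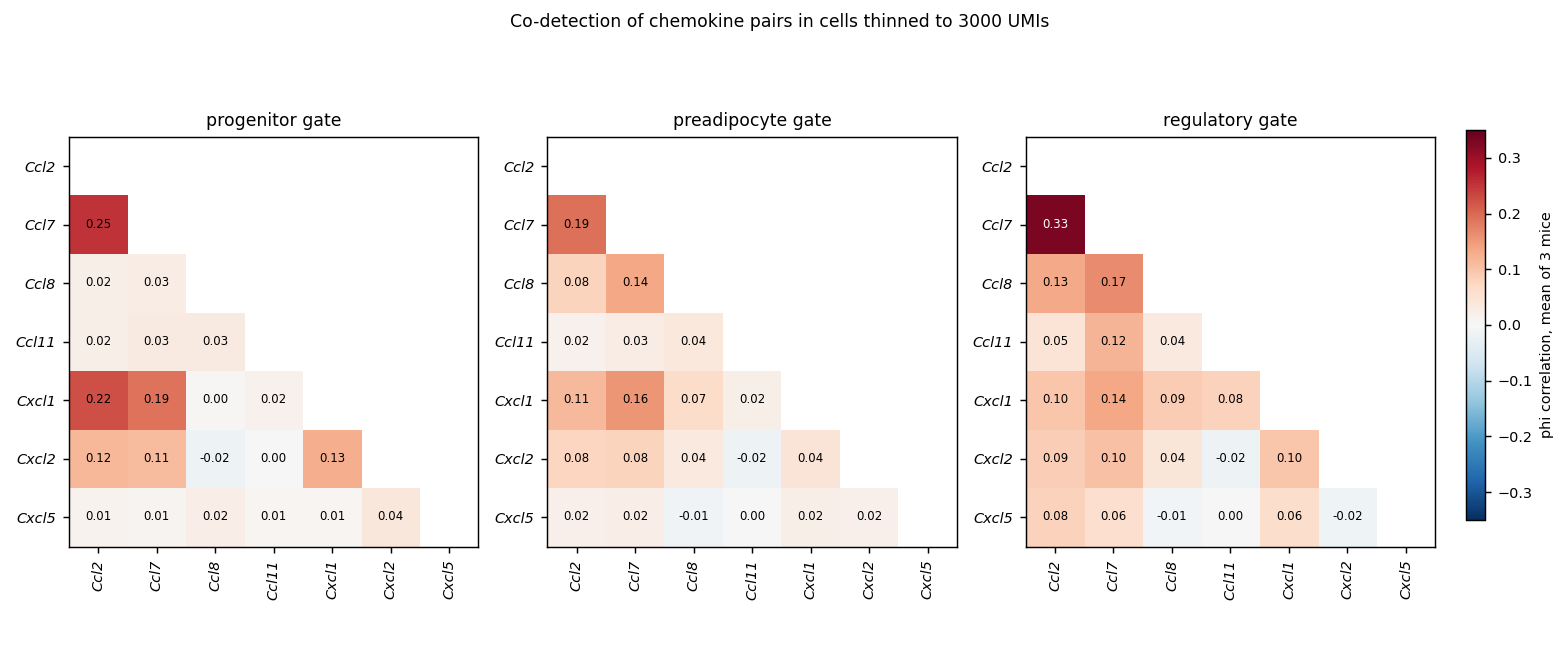
Phi correlation of the detection of each pair of chemokines in cells thinned to 3000 UMIs (mean of 3 mice, colour scale from -0.35 to 0.35, values printed in the squares), 1 panel per gate. The squares of Ccl2, Ccl7 and Cxcl1 are the strongest in progenitor cells, at 0.19 to 0.25, and the Ccl8 row is near 0 there and darker in the other gates.

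The other genes whose detection was most like each chemokine, in the gate where its CPM was highest, were taken from those found in at least 2% of thinned cells of each mouse. For Ccl2 in progenitor cells they were Nfkb1, an NF-kB subunit (mean phi 0.22 over 3 mice), the histone demethylase gene Kdm6b (0.15), Ptx3, which encodes a soluble pattern receptor (0.14), Fosl1, an AP-1 subunit (0.14), and Gm12840 (0.14). Nfkb1 was also first for Cxcl1 (0.21), followed by Has1, a hyaluronan synthase (0.19), Tnfaip6, which modifies hyaluronan (0.18), Ptgs2, a prostaglandin synthase (0.18), and Ptx3 (0.17). It was first again for Cxcl2 (0.12), followed by Fosl1 (0.10), Eif4e (0.10), Kdm6b (0.09) and the NF-kB subunit gene Rel (0.09). For Ccl7 in regulatory cells they were Ptx3 (0.20), Il6 (0.20), the complement gene C4b (0.19), Nfkb1 (0.19) and Plac8 (0.19). The 95th percentile of the phi of Ccl7 with genes outside the members was 0.06 in regulatory and 0.02 in progenitor cells. For Ccl8 in preadipocytes they were Ptx3 (0.14), the interferon-induced GTPase gene Gbp2 (0.10), the matrix metalloprotease gene Mmp3 (0.10), the interferon-induced Ifit1 (0.10) and Hk2 (0.10). Those of Ccl11 in preadipocytes were Smoc2 (0.12), Enpp2 (0.12), the collagen gene Col6a2 (0.11), Clec3b (0.11) and the glucocorticoid-activating enzyme gene Hsd11b1 (0.11). They shared no gene with the other lists, of which only that of Ccl8 came from the same gate.

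Progenitor cells were next divided by Nr4a3 and Fosl1, transcription factor genes of the early response to stimulation, into cells with at least 2 UMIs of the pair and cells with none. Fosl1 is among the genes named above as most like Ccl2 and Cxcl2 in these cells, so for both the division is not independent of that co-detection. Detection of Ccl7 and Cxcl1 went together with that of Ccl2 and Cxcl2 there, so the division is not independent for them either. Ccl2, Ccl7, Cxcl1 and Cxcl2 were higher in the positive cells, and Ccl11 was not called, nor was Ccl8 except under the settings below. These are 4 of 7 members higher, where 11.1% of 12694 genes were higher and 8.04% lower. Ccl2 was at 2127, 3052 and 3871 CPM in the positive cells and 965, 712 and 1982 CPM in the negative cells of mice 1, 2 and 3, without overlap, as were 20% of all genes tested (log2 fold change 1.52, SE 0.21, edgeR adjusted p = 0.00478). Cxcl2 was at 152, 186 and 277 CPM against 45.7, 37.5 and 98.2 CPM, again without overlap (1.94, SE 0.15, edgeR adjusted p = 0.000957), and Cxcl1 at 2441, 3395 and 3604 CPM against 1266, 1015 and 1972 CPM (1.30, SE 0.17, edgeR adjusted p = 0.00399). Ccl7 was at 1019, 1554 and 1635 CPM against 680, 541 and 1119 CPM, which overlap between mice (1.00, SE 0.19, edgeR adjusted p = 0.0143), and DESeq2 did not call it (adjusted p = 0.15). In contrast, the log2 fold change was -0.06 for Ccl11 (SE 0.05, edgeR adjusted p = 0.398, 95% interval -0.15 to 0.03) and -0.17 for Ccl8 (SE 0.11, edgeR adjusted p = 0.331), the latter called lower without mouse 2 (-0.36, edgeR adjusted p = 0.000234), with gates set on thinned cells (-0.34, edgeR adjusted p = 0.0339) and with sums of thinned cells (-0.45, edgeR adjusted p = 0.00877).

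The Nr4a3 and Fosl1 positive cells were slightly deeper, with a median of 6967 to 12393 UMIs against 5997.5 to 11513. When cells were gated after thinning to 3000 UMIs, Ccl2, Ccl7, Cxcl1 and Cxcl2 were still called. Scaling by library size alone shifted the median of all genes to -0.11 and the share of higher genes among those called from 57.9% to 26.5%, while these 4 genes were still called higher and Ccl8 (-0.29, edgeR adjusted p = 0.0377) and Ccl11 (-0.18, edgeR adjusted p = 0.0237) were called lower. The genes of the digestion list were mostly lower in the positive cells, 9 lower and 3 higher of 16, at 14478 to 17552 CPM in sum against 20925 to 23357 CPM. Of all genes tested there, 8.04% were lower and 11.1% higher.

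Preadipocytes were divided in the same way by Cd44, by whose protein the study also sorted cells, into cells with at least 2 UMIs and with none. All members tested except Ccl11 were higher in the positive cells, 5 of 6, where 12.2% of 11280 genes were higher and 5.86% lower, and Cxcl5 was too low to be tested. Cxcl2 was at 60.1, 23.7 and 186 CPM in the positive and 8.68, 5.26 and 34.4 CPM in the negative cells of mice 1, 2 and 3 (log2 fold change 2.58, SE 0.11, edgeR adjusted p = 2.77e-07), overlapping between mice. Ccl2 was at 1064, 1639 and 1969 CPM against 413, 549 and 922 CPM (1.44, SE 0.08, edgeR adjusted p = 9.56e-07), Ccl7 at 1517, 2997 and 2849 CPM against 639, 986 and 1308 CPM (1.42, SE 0.08, edgeR adjusted p = 9.56e-07), Ccl8 at 197, 304 and 260 CPM against 87.0, 151 and 155 CPM (1.08, SE 0.08, edgeR adjusted p = 6.69e-06) and Cxcl1 at 2217, 2910 and 3555 CPM against 1406, 1266 and 1915 CPM (1.01, SE 0.08, edgeR adjusted p = 1.09e-05). None of these 4 overlapped, as for 18.4% of all genes tested. Ccl11 was at 971, 1142 and 903 CPM against 885, 1198 and 912 CPM, overlapping and higher in 1 of 3 mice (0.11, SE 0.05, edgeR adjusted p = 0.166). Ccl8 was thus called higher here and not in the Nr4a3 and Fosl1 division of progenitor cells, and the difference between both divisions was not tested. Of the progenitor markers tested, 5 of 7 were also higher in the Cd44 positive cells, at 186 to 385 CPM in sum against 151 to 282 CPM, and 6 of 10 preadipocyte markers were lower. The 6 endothelial markers summed to 0 to 1.95 CPM in the positive and 6.21 to 89.5 CPM in the negative cells, and the 1 that was tested, Cldn5, was lower (log2 fold change -7.54, SE 0.40, edgeR adjusted p = 9.56e-07). Their part in the chemokine values was not tested. Median depth was 7578.5 to 13729 UMIs in the positive and 7118 to 12606.5 in the negative cells. The share of higher genes among those called was 67.6%, 42.3% with library size alone and 82.5% in DESeq2, and the same 5 members were called with each. The digestion list was lower here too, 9 of 16 genes against 2 higher.

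Cxcl9 is a chemokine gene induced by interferon gamma, and preadipocytes with at least 1 UMI of it were set against those with none. Ccl2, Ccl7, Ccl8, Ccl11 and Cxcl1 were higher in the positive cells, 5 of 7, where 4.46% of 11574 genes were higher and 0.804% lower. Ccl7 was at 1669, 2948 and 2739 CPM in the positive and 702, 1324 and 1527 CPM in the negative cells of mice 1, 2 and 3, without overlap, as were 8.79% of all genes tested (log2 fold change 1.14, SE 0.05, edgeR adjusted p = 5.55e-10). The changes of Ccl2 (0.88, SE 0.09, edgeR adjusted p = 8.35e-06), Ccl8 (0.81, SE 0.07, edgeR adjusted p = 5.55e-07), Cxcl1 (0.61, SE 0.05, edgeR adjusted p = 3.07e-07) and Ccl11 (0.40, SE 0.04, edgeR adjusted p = 8.77e-06) were smaller, and each was higher in 3 of 3 mice. Cxcl2 was at 32.1, 15.3 and 39.6 CPM against 17.3, 17.2 and 66.3 CPM, higher in 1 of 3 mice (-0.03, SE 0.20, edgeR adjusted p = 0.981, 95% interval -0.43 to 0.37). This was the division in which Ccl11 was called and Cxcl2 was not. The share of higher genes among those called was 84.7%, and 69.5% with library size alone. The 6 endothelial markers were all higher in the Cxcl9 positive cells, at 0 to 160 CPM in sum against 4.58 to 36.7 CPM, and none was seen in 1 mouse. Without the cells that held a UMI of another cell type's markers, the same 5 members were called.

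Without the mouse as a block, edgeR called 0 members in the 3 divisions within gates, so these calls rest on each mouse serving as its own control. At an unadjusted p under 0.05, the fit without the block gave 4 members for Nr4a3 and Fosl1, 5 for Cd44 and 4 for Cxcl9, and DESeq2 with the block called 3, 5 and 5 members.

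The genes around these chemokines were counted from lists. Of 10 chemokine receptors listed, only 4 were tested between the gates, the atypical receptors, which take up chemokines without the usual signal. Their uptake of the members was not measured. All 4 were lower both in preadipocytes and in regulatory cells than in progenitor cells. Of all genes tested, 29.2 and 24% were lower in the same comparisons. Ackr3 was at 1201 CPM (mean of 3 mice) in progenitor cells and 360 CPM in preadipocytes (log2 fold change -1.78, SE 0.08, edgeR adjusted p = 1.44e-09), Ackr1 at 74.6 and 13.3 CPM (-2.58, SE 0.11, edgeR adjusted p = 1.41e-09) and Ackr2, which scavenges inflammatory CC chemokines, at 36.3 and 2.46 CPM (95% interval of the log2 fold change -4.32 to -3.68, edgeR adjusted p = 9.28e-10). Of 11 related chemokines only Ccl9 and Cxcl3 were tested between the gates. Ccl9 was called higher and Cxcl3 lower in preadipocytes than in progenitor cells. The 11 genes were near the floor, summing to 3.81 to 10.8 CPM in progenitor cells and 1.79 to 5.82 CPM in preadipocytes. Cxcl3, which lies within the chromosome 5 cluster, was at 6.04 CPM in progenitor cells and 2.16 CPM in preadipocytes (-1.49, SE 0.21, edgeR adjusted p = 5.63e-05) and rose in the Nr4a3 and Fosl1 positive cells (2.25, SE 0.37, edgeR adjusted p = 0.00796).

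Of 16 upstream receptors and adaptors, 9 were higher and 7 lower in preadipocytes than in progenitor cells, where 27.2% of all genes tested were higher and 29.2% lower. Il1r1, the interleukin 1 receptor, was higher (log2 fold change 0.92, SE 0.10, edgeR adjusted p = 7.09e-06), and Tlr2, a Toll-like receptor, was lower (-2.52, SE 0.12, edgeR adjusted p = 3.62e-09), as was Il13ra1, a receptor chain for interleukin 13 (-3.99, SE 0.10, edgeR adjusted p = 3.60e-11). Of 18 transcription and mRNA decay factors, 6 were higher and 8 lower, beside the same shares of all genes. Nfkb1 was at 634 CPM in progenitor cells and 250 CPM in preadipocytes (-1.39, SE 0.10, edgeR adjusted p = 1.17e-07) and rose in Nr4a3 and Fosl1 positive progenitor cells (1.48, SE 0.18, edgeR adjusted p = 0.00326), in Cd44 positive preadipocytes (1.33, SE 0.10, edgeR adjusted p = 7.83e-06) and in Cxcl9 positive ones (0.66, SE 0.06, edgeR adjusted p = 1.69e-06). In the 3 divisions within gates 11, 12 and 12 of the 18 factors were higher and 1, 0 and 0 lower. Of all genes tested there, 11.1, 12.2 and 4.46% were higher and 8.04, 5.86 and 0.804% lower. Irf1, an interferon-induced factor, was higher in Cxcl9 positive preadipocytes (1.00, SE 0.04, edgeR adjusted p = 5.64e-11) and not called in Nr4a3 and Fosl1 positive progenitor cells (0.13, SE 0.09, edgeR adjusted p = 0.346).

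Cells outside all gates, 2988, 1348 and 3517 in the 3 mice, held Ccl2, Ccl8, Ccl11, Cxcl1 and Cxcl2 at levels between the progenitor and the preadipocyte value of the same mouse, with Ccl2 at 987, 1346 and 2148 CPM and Ccl11 at 733, 796 and 627 CPM. Ccl7 was at 1136, 1713 and 1992 CPM in them, above every gate of the same mouse.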

How the data were processed

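The authors deposited, per mouse, a matrix of raw UMI counts per gene and barcode. The submitters' processing notes name Cell Ranger 2.1.1 and mm10, while the file headers name cellranger 4.0.0. The paper's methods name a later release than either, and the difference could not be settled. Barcodes with more than 500 genes and under 5% mitochondrial UMIs were kept. Total UMIs of the 3 libraries were 95899433, 79801002 and 100846072. The members and gene lists were chosen with earlier results of these data known. The rule for named genes took the 7 members, the genes of the lists, the genes that set the gates and, per member, the 5 other genes with the largest mean phi in the gate where its CPM was highest, among genes in at least 2% of thinned cells. Cells that met 2 gates (49, 119 and 96) were left out, a choice made after seeing the data. No doublet caller was run, and leaving out the 5% of cells with the most UMIs was an alternative.

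UMIs were summed per mouse and gate and compared with edgeR 4.0.16 (R 4.3.3; quasi-likelihood test, filterByExpr, TMM, mouse as a block, two-sided), with Benjamini-Hochberg adjustment over all genes tested and a threshold of 0.05. The genes that set a gate were not tested. Deviations of gates of the same mouse correlated at 0.153 to 0.676 over 13258 genes. Each mouse is 1 library, so animal and library cannot be told apart as the source of this pairing. With 3 mice, an exact sign-flip test of a single value could not go below p = 0.25, so none is given. Intervals of fold changes are log2 fold change ± 1.96 SE. They are narrower than the F test behind the p-values implies, so 95% is approximate for them. With the mouse as a block, the p-values measure variation of the difference between cell groups, not the spread of levels between the 3 libraries. edgeR draws each gene's estimate of that variation toward those of all genes, and the gate comparisons fitted all 3 gates together. A small p-value therefore does not rest on a gene's own 3 libraries alone. Each edgeR SE was computed from the log2 fold change and the F statistic of this test. DESeq2 1.42.0, other scalings, filters, depths and gates were alternatives. The script was tested on simulated data with the same spread setting for every gene and changes planted only in well-counted genes. That test does not cover genes as rare as Cxcl5. Shares carry 95% Clopper-Pearson intervals, which cover counting error only, as does the limit of 3 counts for a count of 0. Promoter sequences were from RefSeq and gene positions from GENCODE vM21. Calculations used python 3.11.15 with scipy 1.17.1.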

Additional observations from a re-analysis of the deposited data

How the results depend on the processing

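Of 823 alternative values, 701 kept their direction and side of the threshold or stayed within the spread, 59 moved, 31 lost and 14 gained a call, and 18 changed sign. The cause of these changes was not tested. Depth limits the regulatory gate, with 270 to 404 cells a mouse, and Cxcl5, found in 8 to 82 cells a mouse.

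Cell groups are paired by the mouse, which is also the library. Without the replicate block, genes called were 3992 for preadipocytes against progenitor cells, 3128 for regulatory against progenitor cells, 1530 for preadipocytes against regulatory cells, 11 for the Nr4a3 and Fosl1 division, 0 for Cd44 (1207 at an unadjusted p under 0.05, and 762 in DESeq2) and 29 for Cxcl9. Members called without the block were 0 for preadipocytes against regulatory cells and 0 in each of the 3 divisions, in edgeR, with 1, 4, 5 and 4 at an unadjusted p under 0.05 and 3, 3, 5 and 5 called by DESeq2 with the block. In preadipocytes and in regulatory cells against progenitor cells, 4 and 5 members were called without the block.

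Genes called also moved with DESeq2, to 1193 for Nr4a3 and Fosl1, 762 for Cd44 and 316 for Cxcl9. With gates set on thinned cells they moved to 3332 for regulatory against progenitor cells, 1836 for preadipocytes against regulatory cells, 1341 for Nr4a3 and Fosl1, 181 for Cd44 and 255 for Cxcl9, and with sums of thinned cells to 2144, 1551, 912 and 358 for the last 4 of these. Without a filter on low counts, 5 members were called between preadipocytes and regulatory cells. Leaving out 1 mouse gave 6120 to 6635, 4177 to 4799, 2060 to 2808, 1484 to 2996, 1097 to 2024 and 382 to 764 genes called in the 6 comparisons, in the order of the report, and the lowest of the last 4 ranges came without mouse 2, 3, 2 and 2. Without mouse 3 the Cd44 division gave 1230. Members called were then 5 to 6, 6 to 7, 2 to 4, 4 to 5, 5 to 6 and 5.

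In preadipocytes against progenitor cells, the values that changed sign were Ccl7 with gates on thinned cells (-0.049) and Cxcl5 without mouse 2 (-0.45, and 1.72 without mouse 3). In preadipocytes against regulatory cells they were Ccl7 with looser gates (0.031) and Cxcl2 with DESeq2 (-0.077), without the block (-0.011), without mouse 2 (-0.26, range up to 0.24), with sums of thinned cells (-0.11), without the deepest cells (-0.028), without cells holding other markers (-0.067) and with cells of 2 gates kept (-0.090). With gates on thinned cells Ccl11 changed to 0.054 for Nr4a3 and Fosl1 and -0.086 for Cd44. For Cxcl9, Cxcl2 changed with DESeq2 (0.051), without mouse 3 (0.45, range from -0.48), with gates on thinned cells (0.40) and with looser gates (0.46).

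The share of cells with Ccl11, regulatory minus progenitor, was -2.72 percentage points at full depth, 10.0 thinned to 3000 UMIs and 9.57 thinned to 2000. Members with a higher share in regulatory cells in every mouse were 0 at full depth, 2 and 2 after thinning and 1 at 2 UMIs or more. After thinning, the top 10% of progenitor cells held 97.5% of Ccl8, 97.3% of Cxcl2 and 42.2% of Ccl11 UMIs.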
